A study of Macaca fascicularis with 21 samples.

Results

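Extraembryonic mesenchyme, named EXMC in the deposited annotation, made up 485 of the 1453 annotated cells of cultured cynomolgus monkey (Macaca fascicularis) embryos, more than any other family of cell types. Its members are all cells that the authors' deposited annotation calls EXMC, at every labelled day, and no value computed here was used to choose them. All other annotated cells fell into 6 families, merged here from the annotated types: trophoblast and its derivatives (TE, 380 cells), epiblast (EPI, 304), visceral or yolk sac endoderm (VE/YE, 101), gastrulating cells (Gast, 83), amnion (AM, 82) and primordial germ cells (PGC, 18). All 21 embryos were blastocysts cultured on Matrigel, a gel of basement membrane proteins, after removal of the zona pellucida, and no genotype or added agent was set against another. Labelled days were 11, 12, 13, 14, 16 and 17, with 2, 5, 3, 4, 4 and 3 embryos. The day is given as a culture stage for 5 embryos (replicate 1 of day 12 and replicates 1 and 2 of both day 13 and day 17) and as a developmental stage for 16. The labels do not say whether these begin at a common point. Extra-embryonic cells were removed by dissection before cells were collected by hand, so shares describe the picked cells and not the whole embryo.

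Extraembryonic mesenchyme is the loose connective tissue of the early conceptus. In primates it lines the trophoblast shell, covers the amnion and the yolk sac and forms the connecting stalk, and it is seen there before the primitive streak has formed mesoderm. It lays down collagens and other extracellular matrix, it becomes the core of the placental villi, and the first vessels and blood cells of the conceptus form within the mesenchyme of the yolk sac and chorion.

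A median of 57567 counts (3376 to 480691) and of 5988 genes stood behind an EXMC cell, against family medians of 40104 to 69067.5 counts elsewhere. Counts were summed over the EXMC cells of an embryo, and over all its other annotated cells, in the 19 embryos with at least 5 EXMC cells (479 cells). Day 12 replicate 4 and day 14 replicate 2 had 4 and 2 such cells and gave no sum. Levels are CPM, the counts of a gene per 1000000 counts of the scaled sum, and in such sums fewer cells with a gene and less of its RNA per cell cannot be told apart. Each embryo is 1 replicate. The share of EXMC among the picked cells ran from 2.35% to 80.0% over the embryos, and at day 14 the 4 embryos had 78.7%, 2.35%, 74.7% and 12.0%, with exact 95% binomial intervals of 67.7% to 87.3%, 0.286% to 8.24%, 63.6% to 83.8% and 5.93% to 21.0%. Intervals and limits here cover counting error only.

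The 5 markers given for the type were all higher in EXMC on average, and COL6A1, a chain of beaded collagen VI, set the cells apart most clearly. COL6A1 stood at 433, 1170 and 2879 CPM (lowest, median and highest of 19 embryos) in EXMC sums, against 10.4, 64.3 and 134 CPM in the other cells of the same embryos. The lowest EXMC sum lay above the highest sum of other cells, and the mean difference was 4.27 ± 0.97 on the log2(CPM + 1) scale (SD, n = 19). PDGFRA, the receptor for platelet-derived growth factor on mesenchymal cells, stood at 14.7, 58.8 and 115 CPM against 0.454, 4.85 and 26.8 CPM, higher in EXMC in 19 of 19 embryos although the ranges overlap. FOXF1, a forkhead factor of extraembryonic and lateral plate mesoderm in mice, averaged 37.6 ± 18.3 CPM in EXMC and 3.98 CPM in the other cells (SD, n = 19) and was higher in 18 embryos. TBX20, a T-box factor best known from the heart, averaged 131 CPM in EXMC and 34.4 CPM in the other cells, and it was also higher in 18 embryos. HAND1, a basic helix-loop-helix factor of trophoblast and extraembryonic mesoderm in mice, was higher in EXMC in 14 of 19 embryos, and AM sums held more of it, at a mean of 587 CPM against 204 CPM in EXMC. These are descriptions without a test, because the naming of the cells may have used the same expression values.

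**Figure D1:**
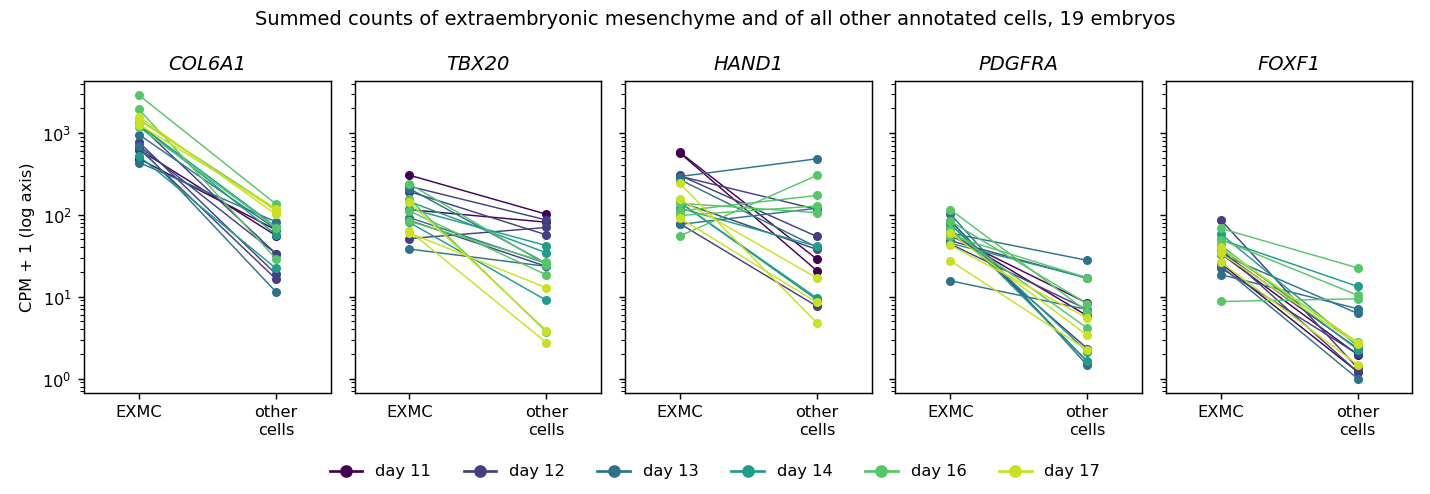
CPM + 1 on a log axis of the 5 markers in EXMC sums (left) and in the sums of all other cells (right), 1 line per embryo (19), coloured by labelled day. COL6A1 separates the sides without overlap, from 433 CPM up in EXMC, while HAND1 is lower in EXMC than in the other cells of 5 embryos.

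In single cells the same markers were read at equal depth, with 382 EXMC cells of at least 20000 counts thinned to 20000 counts each. COL6A1 had a count in 99.5% of these cells, against 58.3% of AM, 50.7% of VE/YE, 39.9% of TE, 37.9% of Gast and 33.2% of EPI cells thinned likewise. HAND1 had a count in 69.6%, TBX20 in 61.0%, PDGFRA in 47.9% and FOXF1 in 42.4% of EXMC cells, and for HAND1 the share in AM cells, 73.3%, was higher. Of the 5 markers, 5 were detected in 44 EXMC cells, 4 in 118, 3 in 120, 2 in 73, 1 in 26 and none in 1. Of 247 EPI cells 4 had 3 markers and none had more, and 144 had none. The summed markers of 23 of 60 AM cells (38.3%) and 19 of 66 Gast cells (28.8%) reached the level that 9 in 10 EXMC cells exceed, against 3 of 247 EPI and 9 of 316 TE cells. AM and Gast are thus the families whose cells overlap most with EXMC in these markers.

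Across all genes, a gene was set apart where its level differed by at least 1 on the log2 scale on average, with the same sign in every embryo. By this rule 192 of 11838 genes (1.62%) were higher and 186 (1.57%) lower in EXMC than in the other cells. The number of lower genes depended on the setting, with 36 against the mean of the other families and 351 without day 16. Of the 192, 180 had their highest family mean in EXMC, 118 were at least 2-fold and 25 at least 8-fold above every other family. The next highest family was Gast for 61 of them, VE/YE for 42, AM for 36, PGC for 32, TE for 13 and EPI for 8. Over all 11838 genes the mean log2 level of EXMC correlated with that of Gast at 0.846 and with the other families at 0.765 to 0.814, a description over genes, which are not independent replicates.

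Several secreted ligands were among the genes farthest above the other cells. HGF, the hepatocyte growth factor that mesenchyme secretes and epithelia receive through MET, stood at 580, 1602 and 3310 CPM in EXMC sums against 11.1, 44.1 and 293 CPM in the other cells, with no overlap. Its mean difference was 5.11 ± 1.37 on the log2 scale (SD, n = 19), and Gast came next with 277 CPM. WNT2, a Wnt ligand of mesenchyme, averaged 124 CPM in EXMC and 4.18 CPM in the other cells, and no family mean other than EXMC was above 5.29 CPM. FGF7, a fibroblast growth factor that signals from mesenchyme to epithelium, averaged 147 CPM against 5.55 CPM, and RSPO2, a secreted enhancer of Wnt signalling, 138 CPM against 6.04 CPM. VEGFC, the ligand for lymphatic and venous growth, averaged 89.2 CPM against 8.12 CPM. Of 33 measured growth factor ligands and receptors, these 4 listed ones (HGF, WNT2, FGF7, VEGFC) and PDGFRA were set apart as higher, and KIT, a receptor of germ cells, was lower at 3.08 CPM against 20.7 CPM. The list's median difference was 0.53, against -0.17 over all genes, of which 1.62% were higher and 1.57% lower.

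Structural matrix genes formed another block. Of 10 measured fibrillar and beaded collagens 7 were set apart as higher and none as lower, where 1.62% of all genes were higher. The list's median difference was 3.78. COL3A1, a fibrillar collagen of soft tissue, averaged 3171 CPM in EXMC and 134 CPM in the other cells, with single EXMC sums of 239 to 8712 CPM. COL6A3 averaged 975 CPM against 52.8 CPM, and COL5A1, which nucleates fibrils, 561 CPM against 34.0 CPM. The basement membrane list, which also holds fibrillins, followed with 8 of 18 higher, among them COL4A1, LAMA2 and NID2, and none lower. POSTN, a matrix protein that binds collagen, averaged 544 CPM against 17.9 CPM and lay 27.6 times above the next family. Among 19 collagen processing genes 6 were higher, with SERPINH1, the collagen chaperone, at 1788 CPM against 505 CPM.

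Of 27 measured mesoderm transcription factors 6 were set apart as higher and none as lower, where 1.62% of all genes were higher. HAND2, the paralogue of HAND1, averaged 124 CPM in EXMC and 8.46 CPM in the other cells, and every EXMC sum lay above every sum of other cells. ZEB2, a repressor of epithelial genes, averaged 438 CPM against 48.8 CPM, and MEIS2, PITX1 and TBX4 were also set apart. Of the BMP pathway, BMP2 (194 CPM against 28.7 CPM), BMP5 (148 CPM against 8.80 CPM) and the decoy receptor BAMBI (462 CPM against 95.1 CPM) were higher, 3 of 20. Other genes among the 15 with the largest positive difference were TEK, the angiopoietin receptor (172 CPM against 10.3 CPM), PLAC1, CCDC80, RBMS3, PRDM6 and OSR1, a zinc finger factor of intermediate and lateral mesoderm.

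**Figure D2:**
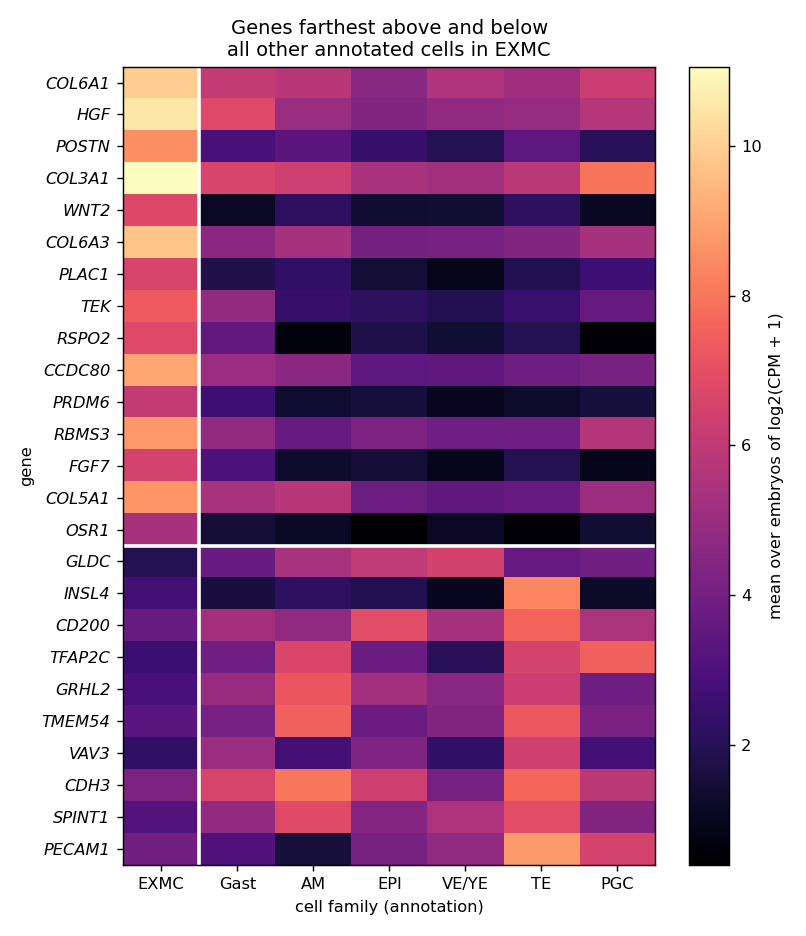
Mean log2(CPM + 1) over embryos in the 7 families for the 15 genes farthest above (top) and the 10 farthest below (bottom) the other cells, EXMC in the first column. The top block is bright in EXMC, where HGF averages 1614 CPM and COL3A1 3171 CPM, and the bottom block is dark there and bright mainly in AM and TE.

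Epithelial genes stood on the other side. All 19 measured epithelial genes had a negative mean difference and 8 were set apart as lower, where 1.57% of all genes were lower. Among the 8 were EPCAM, an epithelial adhesion molecule (84.4 CPM in EXMC and 238 CPM in the other cells), CLDN4, SPINT1 and the epithelial factor GRHL2 (10.6 CPM against 73.2 CPM). CDH3, placental cadherin, averaged 27.8 CPM against 181 CPM. TFAP2C, a factor of trophoblast, amnion and germ cells, averaged 7.42 CPM against 63.6 CPM. GLDC, an enzyme that breaks down glycine, had the largest negative difference, -3.52 ± 1.57, with 4.62 CPM against 50.6 CPM. Keratins were not set apart: KRT8 averaged 452 CPM in EXMC and 864 CPM in the other cells, and it was higher in EXMC in 3 embryos.

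Endothelium markers were mixed, with 5 of 11 measured members positive and a median difference of -0.23, against -0.17 over all genes. PECAM1, the endothelial adhesion molecule, averaged 33.3 CPM in EXMC and 289 CPM in the other cells, with 657 CPM in TE, and CDH5, VE-cadherin, averaged 17.4 CPM against 192 CPM. By the rule above TEK was higher and PECAM1 and ESAM were lower. Of the blood markers only RUNX1 was abundant enough to be measured, at 143 CPM against 163 CPM. Of the 8 measured amnion markers 3 were set apart as higher in EXMC (IGFBP3, POSTN, BAMBI) and 2 as lower (TFAP2A, GATA3), with a median difference of -0.93. Over all genes 1.62% were higher and 1.57% lower. These calls compare EXMC with all other cells together and not with AM alone.

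The change of EXMC with the labelled day was tested over all genes that passed a filter on low counts, with day as a number. The labels give the day, and whether it also entered the naming of the cells is not known. With edgeR, 790 of 11056 genes (7.15%) rose and 513 (4.64%) fell with day at an adjusted p under 0.05, together 1303 (11.8%), and a slope is given in log2 units per day with its standard error. Of the markers, COL6A1 rose by 0.23 ± 0.05 (adjusted p = 0.00567), with means of 1418 CPM at day 17 and 553 CPM at day 11. HAND1 fell (-0.30 ± 0.07, adjusted p = 0.00707), while the slopes of TBX20 (-0.13), PDGFRA (-0.03) and FOXF1 (-0.03) did not pass. Without the 4 embryos of day 16 neither COL6A1 nor HAND1 passed.

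Matrix genes rose together as the days went on. Of 9 tested fibrillar and beaded collagens 8 rose and none fell, where 7.15% of all genes rose. The median slope of the list was 0.41 against 0.02 over all genes, and 5 of the 8 still passed without day 16. Summed over the list, collagens took 2095 ± 411, 5009 ± 1827, 5094 ± 2754, 10961 ± 5565, 20809 ± 4079 and 18100 ± 2272 CPM of EXMC at days 11, 12, 13, 14, 16 and 17 (SD, n = 2, 4, 3, 3, 4 and 3). Days 16 and 17 lay above days 11 to 13 without overlap. Leaving out any single embryo ended none of the 8 calls. COL1A2 rose by 0.68 ± 0.12 (adjusted p = 0.00167) and COL5A1 by 0.41 ± 0.06 (adjusted p = 1.38e-04).

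Collagen processing genes moved the same way, with 10 of 19 rising and none falling, where 7.15% of all genes rose. The list holds enzymes, chaperones and parts of the secretory vesicle coat. PCOLCE, which speeds the trimming of procollagen, averaged 5.09 CPM at day 11, 34.2 CPM at day 13 and 357 CPM at day 17, a slope of 1.19 ± 0.14 (adjusted p = 2.45e-05). LOX, which cross-links fibres, rose by 0.71 ± 0.16 (adjusted p = 0.0053) and P4HA2, a prolyl hydroxylase, by 0.54 ± 0.06 (adjusted p = 7.68e-06). The chaperone SERPINH1, high at every day, had a slope of -0.09 ± 0.04 that did not pass (adjusted p = 0.161). Of the 10 that rose, P4HA1 and P4HA2 are also hypoxia genes, and the hypoxia list, 9 of 17 risen, summed to 8627 ± 1691 CPM at day 16 against 3050 to 4382 CPM as means of the other days. PLOD2, LEPRE1 and SEC24D lost their calls in 14, 8 and 11 of the 19 fits that left out 1 embryo. Without day 16, 5 of the 10 processing genes and 2 of the 9 hypoxia genes still passed. The part of day 16 in these rises was not tested further.

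Among matrix glycoproteins and proteoglycans 11 of 19 rose and none fell, where 7.15% of all genes rose. SPARC, a collagen-binding protein, stood at 531 CPM at day 11 and 2883 CPM at day 17 and rose by 0.37 ± 0.05 (adjusted p = 1.37e-05). FN1, fibronectin, rose by 0.25 ± 0.05 and VCAN, versican, by 0.24 ± 0.06. LUM, lumican, averaged 8.34 CPM at day 11 and 3935 CPM at day 14 but 2333 CPM at day 17, and its slope of 0.77 ± 0.26 missed the threshold (adjusted p = 0.0631). Of 18 tested genes of the basement membrane list, which also holds fibrillins, 5 rose and 1 fell, where 4.64% of all genes fell. LAMB2, LAMA2, NID1, NID2 and COL4A1 rose, LAMB2 most (0.82 ± 0.13, adjusted p = 3.01e-04). FBN2, fibrillin 2, a microfibril gene, fell (-0.20 ± 0.06, adjusted p = 0.0338). Without day 16, 1 of the 5 rises still passed and the fall did not. With at least 10 cells, 2 of the 5 rises still passed. The call of NID1 was lost without day 11 replicate 2, and those of COL4A1, LAMA2 and FBN2 were lost in 8, 4 and 5 of the fits that left out 1 embryo.

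Contractile genes rose late. Of 16 tested genes of smooth muscle and contractile filaments 8 rose and none fell, where 7.15% of all genes rose. Their list summed to 9532 ± 3269 CPM at day 17, against means of 1142 to 3403 CPM on the earlier days. Day 17 lay above every earlier embryo. TAGLN, transgelin, had 2793, 1187 and 2669 CPM in the 3 sums of day 17 against 15.4 to 811 CPM before, with a slope of 0.60 ± 0.14 (adjusted p = 0.00899). MYL7, an atrial myosin light chain, averaged 408 ± 106 CPM at day 17 and 4.69 to 20.9 CPM as means of the other days (0.84 ± 0.17, adjusted p = 0.0043). Without day 17, 1 of the 8 calls remained. TPM1, tropomyosin, rose more evenly, with 219, 233, 422, 1128, 1334 and 2322 CPM as means of days 11 to 17 (0.56 ± 0.06, adjusted p = 5.02e-06).

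Of 29 tested mesoderm transcription factors 2 rose, 4 fell and 23 did not pass, where 7.15% of all genes rose and 4.64% fell, and the summed list stayed between 2497 and 2971 CPM as day means. TBX4, a T-box factor of the allantois and hindlimb in mice, averaged 35.6 ± 12.5 CPM at day 11 and 4.63 ± 1.60 CPM at day 17 and fell (-0.52 ± 0.10, adjusted p = 0.00144). TBX3 fell as well (-0.41 ± 0.08, adjusted p = 0.00218), with HAND1 and GATA4, the call of GATA4 being lost without day 11 replicate 1. ZEB1, the paralogue of ZEB2, rose (0.49 ± 0.13, adjusted p = 0.0133), and so did TCF21, a factor of fibroblast precursors, whose call was lost in 10 of the fits that left out 1 embryo. ZEB2, set apart by level, had a slope of 0.07 ± 0.06 and did not pass.

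**Figure D3:**
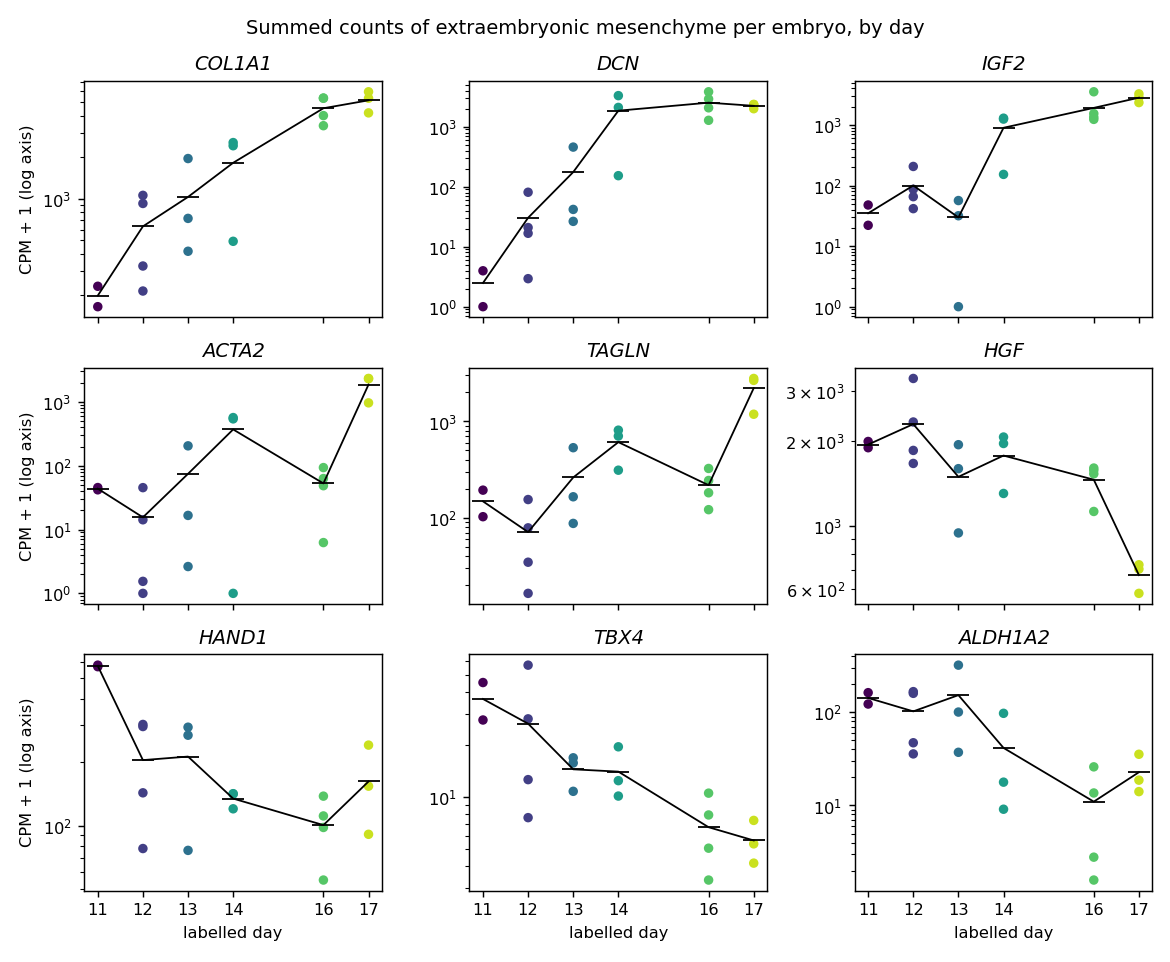
CPM + 1 on a log axis of 9 genes in EXMC sums by labelled day, 1 point per embryo (19) with day means joined by a line. As day means, matrix genes and IGF2 are high from day 14 or 16 on, and ACTA2 and TAGLN peak at day 17. HGF, HAND1, TBX4 and ALDH1A2 are lower late than early. Day 14 is split, with COL1A1 at 2423 and 2554 CPM in replicates 1 and 3 but 492 CPM in replicate 4. DCN stands there at 2096, 3296 and 152 CPM.

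Among signals, HGF had 1888 and 1986 CPM at day 11 but 580, 706 and 731 CPM at day 17, and it fell (-0.24 ± 0.05, adjusted p = 0.00266). All 3 sums of day 17 lay below every sum of the earlier days. At day 16 the sums still held 1528, 1127, 1573 and 1602 CPM of HGF, and its call was lost without day 17. KDR, the main receptor for vascular endothelial growth factor, averaged 1.85 CPM at day 11 and 58.8 CPM at day 17 and rose (0.56 ± 0.12, adjusted p = 0.00349), while TEK did not pass (-0.06 ± 0.06). BMP7 rose by 0.60 ± 0.16 (adjusted p = 0.0126) at low levels of at most 30.9 CPM. BMP5 rose by 0.43 ± 0.13 (adjusted p = 0.0432) with 390 ± 106 CPM at day 16 and 77.8 ± 6.23 CPM at day 17, and 13 single embryos each ended that call when left out. Neither BMP7 nor BMP5 passed without day 16 or with at least 10 cells. ALDH1A2, which makes retinoic acid, fell (-0.64 ± 0.17, adjusted p = 0.0188), while STRA6, a receptor for the retinol carrier, rose (0.51 ± 0.08, adjusted p = 2.21e-04). The call of ALDH1A2 was lost without day 16 and with at least 10 cells.

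Among the 10 largest rises were those of ADAMTS12, a secreted protease (1.44 ± 0.14, adjusted p = 1.52e-06), STC1, stanniocalcin, IGFBP2 and FRZB, a secreted Wnt inhibitor (1.25 ± 0.28, adjusted p = 0.00935). FRZB averaged 1.91 CPM at day 12, 918 ± 350 CPM at day 16 and 250 ± 51.4 CPM at day 17. The largest falls included NPPA, the atrial natriuretic peptide (65.9 CPM at day 11 and 0.579 CPM at day 17, slope -1.15 ± 0.17), SLCO4C1, an organic anion carrier (-0.72 ± 0.11), and PLAU, urokinase (-0.58 ± 0.13). DNAH7, a dynein chain with a slope of -1.15 ± 0.28, was highest at 979 and 226 CPM in day 12 replicates 3 and 2, all other sums holding at most 75.6 CPM. PIK3R3, PCGF5, PID1 and TEX40 also fell, the call of PIK3R3 being lost in 6 of the fits that left out 1 embryo and that of PCGF5 without day 11 replicate 1. Some of these genes were also abundant in the other cells. Those cells held 1905 and 1659 CPM of NPPA at day 11 and at most 1.255 CPM at day 17. At day 11 they held 790 and 818 CPM of PID1, against 17.8 and 30.4 CPM in EXMC. They held 406 CPM of DNAH7 in day 12 replicate 3 and 149 to 507 CPM of IGFBP2 on days 16 and 17. The part of the other cells in the changes of EXMC was not tested.

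Cell cycle genes fell in part. Of 17 S phase genes 6 fell and none rose, where 4.64% of all genes fell. Of these 6, 4 still passed without day 16. PCNA, the DNA polymerase clamp, averaged 244 CPM at day 11, 67.5 CPM at day 16 and 92.6 CPM at day 17 (-0.35 ± 0.05, adjusted p = 1.20e-04). Of 19 genes of G2 and M phase 6 fell, 4 of which (BIRC5, AURKB, PLK1, CDC20) lost their calls in 4 to 11 fits that left out 1 embryo. Of the 6, 1 still passed without day 16 and 1 without day 17, while TOP2A (0.11 ± 0.08) and CENPF (0.04 ± 0.07) did not pass.

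Markers of other families in the EXMC sums also moved with the day. Trophoblast markers summed to means of 1479 to 2316 CPM on days 11 to 14, 298 ± 101 CPM at day 16 and 648 ± 239 CPM at day 17. Of 13 tested 6 fell, where 4.64% of all genes fell. Of these 6, 1 still passed without day 16 and 2 with at least 10 cells. CGA, the hormone alpha subunit, fell most (-0.81 ± 0.18, adjusted p = 0.0078). TE cells were 0 or 1 of the picked cells in each embryo of day 16. Epiblast markers summed to 884 ± 252 CPM at day 16 against means of 139 to 405 CPM on the other days. Of 8 tested 5 rose, where 7.15% of all genes rose, and 1 of the 5 still passed without day 16. Endoderm markers summed to 1249 ± 880 CPM at day 16 against means of 45.0 to 366 CPM. Their part in the day changes was not tested.

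Whether EXMC changed otherwise than the remaining embryo was tested as its slope minus the mean slope of EPI, TE and VE/YE, with the embryo as a block. EXMC had sums in 19 embryos, EPI in 14, TE in 15 (none at day 16) and VE/YE in 9, so the slopes do not all rest on the same embryos. AM, Gast and PGC stood at too few days to enter. With edgeR, 162 of 13050 genes (1.24%) had a higher slope in EXMC and 33 (0.253%) a lower one, together 195 (1.49%). This comparison is thin: with sums of at least 10 cells in place of 5, only 3 genes had a higher slope and none a lower one, and without day 11 replicate 1 the counts were 42 and 7. None of the 14 genes named here for the largest differences passed with at least 10 cells.

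SLIT2, a secreted guidance molecule, had the smallest adjusted p among the genes named here. It had no count in either EXMC sum of day 11 and averaged 375 ± 61.6 CPM in EXMC at day 17, whereas at day 17 EPI averaged 33.6 CPM and TE 25.8 CPM. The slopes differed by 1.2 ± 0.18 (adjusted p = 1.47e-04). PDLIM4, a PDZ and LIM domain protein of the cytoskeleton, averaged 0.741 CPM in EXMC at day 11 and 93.8 ± 64.1 CPM at day 17. At day 17 EPI averaged 3.10 CPM and TE 4.67 CPM. Its slopes differed by 1.26 ± 0.26 (adjusted p = 0.00861), and no fit that left out 1 embryo lost the call. The call was lost without day 17, with developmental stage labels alone and without the embryo as a block. It was also lost with at least 10 cells and against the sum of all other cells. C7, a late complement component, had no count in EXMC before day 13 and 52.4 to 62.1 CPM as day means from day 14. The day 14 sums of replicates 1, 3 and 4 held 61.0, 96.1 and 0 CPM. EPI and TE held at most 3.22 CPM as day means, and the only VE/YE sum of day 13 held 17.8 CPM. The slopes of C7 differed by 1.77 ± 0.37 (adjusted p = 0.0122). Where the early sums hold no count, the size of a slope depends on the prior count of the fit. The calls of SLIT2, C7, RAMP1 and SLC38A5 were lost without day 11 replicate 1, that of ANKRD55 without day 13 replicate 3, and that of KIAA1324 without day 17 replicate 2, the sum with most of it (248 CPM).

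**Figure D4:**
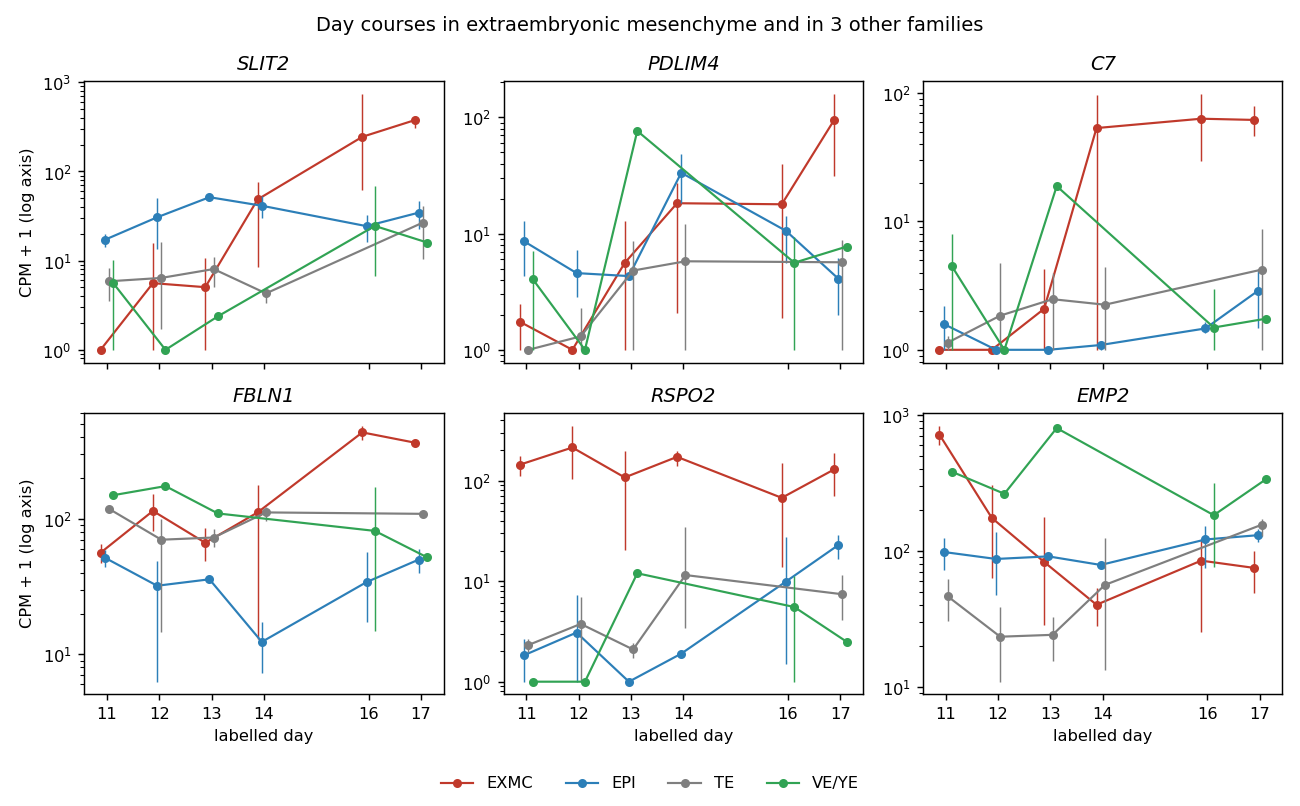
Day means of CPM + 1 on a log axis in EXMC, EPI, TE and VE/YE, with lines from the lowest to the highest embryo. In EXMC, SLIT2 reaches 375 CPM, C7 60.8 CPM and FBLN1 363 CPM at day 17, each above the 3 other families there, RSPO2 is above the other families at every day, and EMP2 drops in EXMC after 714 CPM at day 11.

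A higher slope in EXMC was called for 1.24% of all genes. It was called for 2 of 21 glycoproteins, 1 of 19 collagen processing genes and 2 of 17 contractile genes. Among 34 growth factors and receptors, 2 were called. These genes were FBLN1 and IGFBP7 (glycoproteins), PCOLCE (processing), TPM1 and MYLK (contractile), and IGF2 and TGFBR3 (growth factors and receptors). None of the 11 fibrillar and beaded collagens passed. A lower slope was called for FSTL1 among glycoproteins, LAMA4 among 18 basement membrane genes, FLT1 among the receptors and ALDH1A2 in the retinoid list. It was also called for 1 of 17 S phase genes and 1 of 19 hypoxia genes, against 0.253% of all genes. Higher calls in other lists were ESRP1 and CLDN6 (epithelial), THY1 (mesenchymal transition), TEAD3 (trophoblast), DNMT3B (epiblast), C7 (complement) and STRA6 (retinoid). Of these, FSTL1, CLDN6, STRA6 and TEAD3 lost their calls in 8, 11, 11 and 14 fits that left out 1 embryo, THY1 without day 13 replicate 3 and DNMT3B without day 11 replicate 1. FBLN1, fibulin 1, averaged 433 ± 51.4 CPM in EXMC at day 16 and 363 ± 15.9 CPM at day 17 after 55.1 to 113 CPM on days 11 to 14, and its slope exceeded the others by 0.48 ± 0.11 (adjusted p = 0.0187). PCOLCE exceeded them by 0.73 ± 0.14 (adjusted p = 0.0063). For COL1A1 the difference was 0.39 (adjusted p = 0.191), a p that does not show equal slopes. FBLN1 lost its call without either day 11 embryo, IGF2 without day 11 replicate 1, IGFBP7 in 5 and MYLK in 9 of the fits that left out 1 embryo.

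Among the genes with a lower slope in EXMC were a Wnt signal enhancer, a vascular receptor and a membrane protein. RSPO2 averaged 143 ± 45.4 CPM in EXMC at day 11 and 128 ± 58.9 CPM at day 17, with no call of its own, while EPI averaged 0.835 CPM at day 11 and 21.9 ± 8.68 CPM at day 17, and the slopes differed by -0.71 ± 0.17 (adjusted p = 0.0278). FLT1, a receptor for vascular endothelial growth factor, averaged 185 CPM in EXMC at day 17, whereas TE averaged 8.90 CPM at day 11 and 511 CPM at day 17 (-0.61 ± 0.15, adjusted p = 0.0368). EMP2, a membrane protein, averaged 714 ± 165 CPM in EXMC at day 11 and 39.2 to 174 CPM as later means, and it fell in EXMC itself (-0.45 ± 0.11, adjusted p = 0.0162), with a difference to the other families (-0.52 ± 0.11, adjusted p = 0.0166). EMP2 lost its call without either embryo of day 11, RSPO2 without any of 4 embryos, FLT1 without any of 8. S1PR1, LAMA4, ALDH1A2 and PAM also had a lower slope, each losing its call in at least 7 of the fits that left out 1 embryo.

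Variation among EXMC cells was described within embryos, from 339 thinned cells of the 13 embryos with at least 10 of them. For each gene the squared coefficient of variation was set against that of genes with a like mean, and 152 of 4505 genes (3.37%) exceeded it by at least 1 on the log2 scale. No test was made, since cells are not replicates. RHOD, a small GTPase (4.39), CCL23, a chemokine (3.46), and SST, somatostatin (3.15), were carried by few cells, the highest 39 of 382 cells holding 95.4%, 84.5% and 88.0% of their counts. SOX13 and APOA1 rested largely on 1 cell each, with 37.4% and 32.9% of all counts. ACTA2, smooth muscle actin (2.85), SPP1, osteopontin (3.06), and POSTN (2.13) varied in every embryo with a value, 8, 8 and 12 of them.

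The first axis of variation (9.69% of the variance over the 152 genes) ran from collagen-rich to cytoskeletal cells. COL3A1, COL1A2, FRZB, DCN, COL6A1, IGFBP3, COL1A1 and LSAMP lay at one end and ACTA2, TAGLN, KRT8, KRT18, SPP1, CENPF, TNFRSF12A and CCND1 at the other, and the axis correlated with log2 depth of a cell at 0.15. The second axis (5.93%) set TAGLN, ACTA2, TPM1 and CCDC80 against CENPF, TOP2A, NUSAP1 and MKI67, genes of dividing cells. Across the 339 cells, within embryos, the summed collagens correlated with matrix glycoproteins at 0.78 and with the epithelial list at -0.45, and ACTA2 with TAGLN at 0.71. These correlations describe cells that share a library and a depth and carry no p.

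ACTA2, which leads the first axis, was looked at cell by cell. With a limit of 20 thinned counts, chosen after its values were seen, 73 of 382 cells (19.1%) were ACTA2-high, 51 cells lying between 10 and 39 counts. The exact 95% binomial interval, 15.3% to 23.4%, counts pooled cells as independent, which they are not. The share ran from 0 to 51.1% over the embryos with at least 10 cells. In other families 1 of 316 TE cells and none of 247 EPI, 69 VE/YE, 66 Gast, 60 AM or 13 PGC cells reached the limit. The upper ends of such intervals, which pool cells likewise, were 1.482% for EPI and 5.963% for AM. Any ACTA2 count was present in 53.4% of EXMC against 1.52% to 15.4% of the other cells by family. By day, 0 of 20, 0 of 32, 1 of 34, 12 of 99, 1 of 69 and 59 of 128 EXMC cells of days 11 to 17 were ACTA2-high. The comparison of families pools the days. At day 17 the 3 embryos held 3, 2 and 1 AM cells, 0, 1 and 0 Gast cells and no PGC cell, counted at any depth. For these families cell type and day therefore cannot be told apart here. At day 17 the 3 embryos had 51.1%, 32.1% and 49.1%, at day 14 the 2 embryos with enough cells had 21.2% and 8.77%, and at day 16 the 4 embryos had 0, 0, 5.56% and 0. In the sums ACTA2 rose by 0.88 ± 0.25 (adjusted p = 0.0314), with 2312, 965 and 2328 CPM at day 17, and this call was lost without any of 4 embryos (day 11 replicates 1 and 2, day 17 replicates 1 and 3). The other cells of the day 17 embryos held 676, 42.2 and 55.2 CPM of ACTA2.

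**Figure D5:**
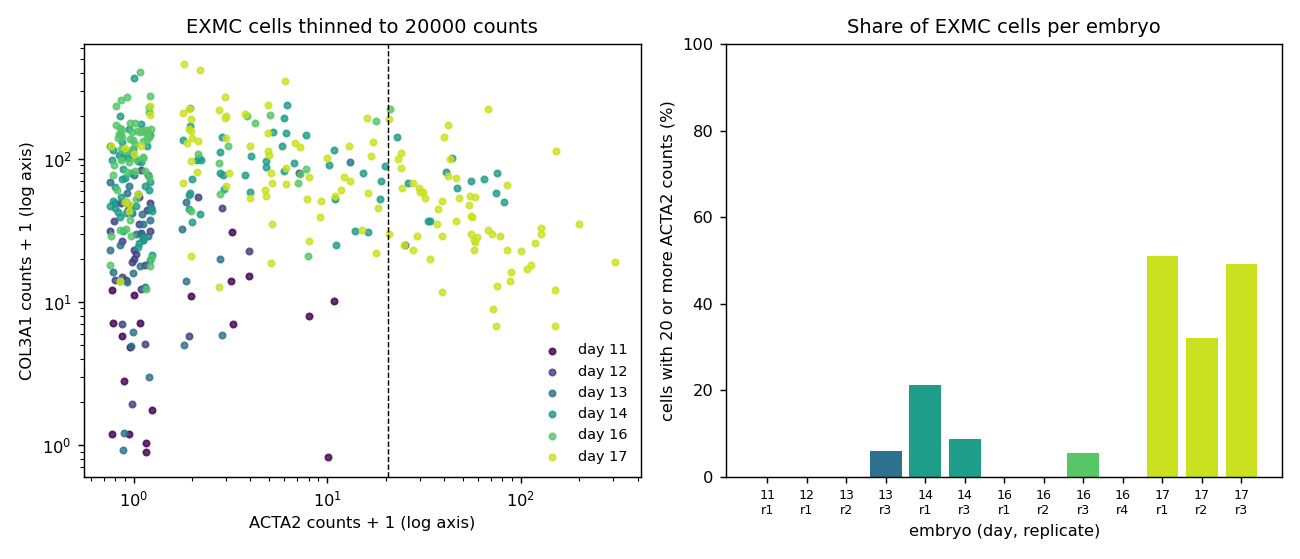
Left, ACTA2 and COL3A1 counts + 1 (log axes, points jittered) in 382 EXMC cells thinned to 20000 counts, coloured by day, the dashed line marking 20 ACTA2 counts. Right, share of ACTA2-high cells in the 13 embryos with at least 10 cells, 32.1% to 51.1% at day 17 and at most 21.2% before.

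Both kinds of cells were set side by side within the 5 embryos that held at least 3 of each (71 ACTA2-high and 147 other cells). The ACTA2-high cells held more TAGLN, MYL9, TPM1, TPM2 and CNN1 in all 5 embryos. The contractile genes DES (0.598 against 0.262 thinned counts) and MYH11 (0.232 against 0.175) were low and were higher in 4 of 5. TAGLN averaged 55.0 ± 18.6 thinned counts in ACTA2-high cells and 11.3 ± 3.30 in the others (SD, n = 5 embryos), TPM1 52.1 against 22.7, CNN1 4.61 against 0.436 and THBS1, thrombospondin, 8.19 against 1.51. COL3A1 averaged 59.6 ± 14.3 against 109 ± 30.8, COL6A1 16.8 against 33.2 and IGFBP3 75.5 against 123, lower in ACTA2-high cells in all 5. Of the EXMC markers, HAND1 averaged 3.10 against 2.49, higher in 3 of 5, and PDGFRA 0.726 against 0.970, lower in all 5. KRT8 averaged 16.6 against 7.42 and KRT18 14.8 against 5.80, higher in 4 of 5, while EPCAM (1.06 against 1.08) and CDH1 (0.276 against 0.262), defining epithelial genes, were near each other. MKI67, a marker of cycling cells, averaged 2.01 against 2.53. Before thinning, ACTA2-high cells had a median of 114500 counts and the others 81043, and the part of depth was not tested. The comparison shares ACTA2 with the choice of cells and is a description.

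Markers of other families were also read per cell, against that family's own level. Of 382 thinned cells 5 (1.31%) reached the tenth percentile of EPI cells for epiblast markers, 6 (1.57%) that of VE/YE cells for endoderm markers and 9 (2.36%) that of PGC cells for germ cell markers. For trophoblast markers 47 cells (12.3%) reached the tenth percentile of TE cells, although only 2 reached the TE median. For amnion markers 380 of 382 cells (99.5%) reached the tenth percentile of AM cells and 352 the AM median, a list that holds IGFBP3, POSTN and BAMBI, all set apart as higher in EXMC. For markers of gastrulating cells the tenth percentile of Gast cells was 0, so that comparison says nothing. All cells were kept, as annotated, in the sums above.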

How the data were processed

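Single cells of 21 cultured embryos were profiled by RNA sequencing. The authors deposited 1 table of raw counts per gene and cell, per the file headers, and a second table with the cell type they gave each cell. Reads were aligned with STAR, per the submitters' processing notes, while no source used here gives the genome build, the read counter, the collapsing of PCR copies or the way cells were named. Members and gene lists were chosen with earlier results of these data known.

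Counts were summed per embryo and family (at least 5 cells), scaled by TMM and read as CPM. The table holds 30792 features; 3273 of 16890 numbered LOC identifiers were named through RefSeq gene IDs. Day changes and their differences between families (embryo as a block) were tested with edgeR 4.0.16 in R 4.3.3 by the quasi-likelihood test after its filter on low counts, with Benjamini-Hochberg adjustment over all genes tested, and every adjusted p in the text is from these fits. The scripts were tested on simulated data. Levels of EXMC against the other cells carry no test. No doublet caller and no filter on cells were applied, except that cells under 20000 counts stayed out of the thinned values. Python 3.11.15, numpy 2.4.6, pandas 2.3.3, scipy 1.17.1 and matplotlib 3.10.9 were used.

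Named genes are the 5 markers, the 15 largest positive and 10 largest negative level differences, the 10 largest day changes each way, the 8 largest differences of day changes each way, the 15 most variable genes, the genes leading the 2 axes and 2 to 4 members of each list, with symbols and, outside the lists, at least 20 CPM. CLDN4, KRT8, CDH5, RUNX1, SERPINH1 and genes named for missing the threshold were chosen after their values were seen, and a few genes that the rule names are not reported here. Alternatives were other size factors, no filter, DESeq2 1.42.0, other cell minimums and depths, days or label types left out, replicate blocks, other comparison families and each embryo left out. Replicates are embryos by their labels, and p-values measure the spread between them.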

Additional observations from a re-analysis of the deposited data

Results flagged for a closer look

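The values of 37 genes in the EXMC sums of days 12 and 16 (4 sums each) and the EXMC shares of days 12, 14 and 16 made 77 groups, and in 12 of them, all of single genes, the gap of the highest sum to the next took most of the range. The limit used for this gap is passed by chance in about 1 of 20 groups of normally distributed values. Its rate for CPM values such as these was not measured. Day 16 replicate 4 held 742 CPM of SLIT2, while the next embryo held 99.0 CPM. The other high sums of day 16 were 6.55 CPM of NPPA, 191 CPM of CGA, 57.7 CPM of KIAA1324, 32.2 CPM of S1PR1 and 50.6 CPM of LAMA4, with next values of 0.467, 61.1, 9.91, 4.76 and 2.58 CPM. At day 12 the high sums were 253 CPM of PIK3R3, 16.5 CPM of ANKRD55 and 2.96 CPM of SLC38A5, with next values of 36.4, 1.93 and 0 CPM. DLK1, OTX2 and RAMP1 each stood at 0.542 CPM in day 12 replicate 1 and at 0 in the other sums of that day, a gap at the level of single counts.

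For 14 genes the change per day in EXMC differed from the mean change of EPI, TE and VE/YE by the edgeR test of that difference, in log2 units per day. It was higher by 1.86 for ANKRD55, 1.77 for C7, 1.38 for KIAA1324, 1.33 for RAMP1, 1.26 for PDLIM4, 1.2 for SLIT2 and 1.16 for SLC38A5. It was lower for S1PR1 (-1.13), ALDH1A2 (-0.99), LAMA4 (-0.83), RSPO2 (-0.71), FLT1 (-0.61), EMP2 (-0.52) and PAM (-0.43). None of the 14 passed with sums of at least 10 cells.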

How the results depend on the processing

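The day change in EXMC gave 790 rises and 513 falls. Rises numbered 1664 without the filter on low counts, 1200 with DESeq2's Wald test, 412 with at least 10 cells per sum and 353 without day 16. Falls numbered 241 with at least 10 cells and 233 without day 16. With the replicate number as a block 769 rose and 332 fell, although the numbers only name embryos within a day and do not pair them. Leaving out 1 embryo gave 595 to 838 rises and 342 to 544 falls. PDGFRA and FOXF1, neither called, turned to positive slopes: PDGFRA 0.0522 with developmental stage labels alone and 0.0724 without day 17, FOXF1 0.0094 with at least 10 cells and 0.0269 without day 17. With 1 embryo left out, PDGFRA ranged over -0.0667 (without day 16 replicate 1) to 0.0046 (without day 17 replicate 1) and FOXF1 over -0.0581 (without day 16 replicate 3) to 0.0353 (without day 12 replicate 3), FOXF1 also being above 0 at 0.0059 without day 16 replicate 4.

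The difference of day changes gave 162 higher and 33 lower slopes. The counts were 419 and 128 without the filter, 412 and 140 with DESeq2's Wald test, 3 and 0 with at least 10 cells, 60 and 13 with developmental stage labels alone, 97 and 19 without day 16, and 92 and 13 without the embryo as a block. Without day 17, 88 were higher. Against the sum of all other cells the counts were 410 and 194, against EPI alone 257 and 111, and against TE alone 168 were lower. Leaving out 1 embryo gave 42 to 201 higher and 4 to 67 lower. These fits with 1 embryo left out reused the genes and the trend of spread with level from the full fit.

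Genes set apart as lower by level, 186 in all, numbered 36 against the mean of the other families and 351 without day 16, and leaving out 1 embryo gave 189 to 215 higher and 185 to 228 lower. Variable genes, 152 in all, numbered 74 at 10000 counts, 242 at 40000 and 91 with a mean of at least 3 counts, and 135 to 160 with 1 embryo left out. The causes were not tested. Depth limits the picture: 103 of 485 cells had under 20000 counts, and early sums hold as few as 7 cells.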
